A study of Mus musculus with 14 samples.

Results

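Solute carrier (Slc) genes encode membrane proteins that move sugars, amino acids, ions, vitamins, metals and metabolites across the plasma membrane or the membranes of mitochondria and vesicles. The genes described here were chosen by name: a protein-coding gene with the symbol Slc, a family number, the letter a and a member number. The rule found 246 of the 16124 genes in the deposited table, which holds 14348 protein-coding genes. The GENCODE M21 annotation holds 340 genes of the same rule, and the 94 others were not among the genes analysed. A pair of the 246 genes, Slc4a1ap and Slc7a6os, follow the naming pattern but are not transporters, and both were counted among 4 genes with another or an unknown role. The rule leaves out the Slco genes and the Slc35 letters other than a.

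Poly(A) RNA came from the mammary epithelium of nulliparous female mice aged 3.5 months, 7 wild-type (WT) and 7 Usp22 OE/OE, with a single library from each. Each OE/OE mouse was compared with a WT littermate, and the pairs carried the numbers 1, 3, 4, 5, 6, 7 and 8. OE/OE mice carried a tagged Usp22 transgene under the CAGGS promoter at both copies of ROSA26, switched on in the germline by ZP3-Cre and active in all tissues, so the cells around the epithelium carried it too. Epithelial organoids were separated from stroma by short spins, a step that enriches epithelium and can leave other cells behind. The libraries held 20125106 to 41835978 fragments on genes. Usp22 had 3500 to 5380 normalized counts in WT libraries and 74948 to 144288 in OE/OE libraries, as the labels require. All 16 pan-epithelial markers were in the table. Of 14 luminal progenitor and alveolar markers 12 were, and the milk protein genes Csn2 and Wap were not. Other milk protein genes were present, with WT means of 11063 normalized counts for Csn3, 285 for Lalba and 47.6 for Csn1s1.

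Transport in the mammary gland is best known from lactation. Glucose enters through Slc2a1 for lactose synthesis, iodide through Slc5a5, the sodium/iodide symporter, and amino acids through heterodimers built on Slc3a2. In ducts of mice that have not been pregnant, Slc12a2, the sodium-potassium-chloride cotransporter, is found in the ductal epithelium and loads cells with chloride for secretion. Mitochondrial carriers of the Slc25 family exchange ADP for ATP and bring phosphate and metabolites into mitochondria of every cell.

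The proximal promoters of a pair of transporters that contrasted in pair 8, described further on, are printed here as sequence context. The contrast did not hold in every pair, and Slc5a5 did not pass the test between litters given below. Slc5a5 was high in the mice of pair 8 and Slc15a2, the proton-coupled peptide transporter, was low in them. The 250 bases before the RefSeq start are given for each on build GRCm38.p6, 5′ to 3′ on the minus strand, with matches to common promoter motifs in capitals. Slc5a5 lies at chr8:70892758-70893007 and Slc15a2 at chr16:36784963-36785212.
Slc5a5: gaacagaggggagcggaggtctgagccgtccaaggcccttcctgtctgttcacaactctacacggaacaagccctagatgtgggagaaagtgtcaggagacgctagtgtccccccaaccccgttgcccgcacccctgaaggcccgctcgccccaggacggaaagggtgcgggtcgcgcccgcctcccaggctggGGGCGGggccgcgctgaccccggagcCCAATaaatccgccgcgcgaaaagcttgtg
Slc15a2: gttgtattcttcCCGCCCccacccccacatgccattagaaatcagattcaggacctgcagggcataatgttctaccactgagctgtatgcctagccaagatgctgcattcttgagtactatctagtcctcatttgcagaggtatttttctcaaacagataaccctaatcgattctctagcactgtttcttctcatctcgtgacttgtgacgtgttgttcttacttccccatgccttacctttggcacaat
The motifs searched on both strands were GGGCGG, the GC box; CACGTG, the E-box; TGACGTCA, the cyclic AMP response element; TGANTCA, the Jun and Fos site; TATAAA, the TATA box; and CCAAT. The Slc5a5 window held GGGCGG 51 to 56 bases before the start and CCAAT 26 to 30 bases before it. The Slc15a2 window held GGGCGG once, on the opposite strand, 233 to 238 bases before the start. Over windows of the same length, 32.9% of 27025 RefSeq promoters held GGGCGG and 34.5% held CCAAT. Among the 185 solute carrier genes with an entry in that table, 60.0% and 33.5% did. A match describes letters and not a bound site.

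Levels of different genes were compared in WT mice as normalized counts per kb of merged exon length, given as mean ± SD over 7 mice. By summed level, the transporter transcripts of these cells were led by mitochondrial, inorganic ion and amino acid carriers. The largest summed level was that of the 42 mitochondrial carriers, 22690 ± 2633 normalized counts per kb. It was followed by the 21 carriers of bicarbonate, chloride and other inorganic ions with 20658 ± 7346, the 42 amino acid carriers with 15088 ± 2445 and the 27 carriers of zinc, iron and other metals with 10906 ± 656. The first pair of classes differed by less than the spread between mice. Most of the inorganic ion sum came from Slc12a2, with a mean of 14292 per kb, and Slc5a5 was second in that class. The rank of that class therefore rests on few of its genes. Sugar and polyol carriers (16 genes) summed to 6531 ± 971 per kb and the 22 carriers of choline, amines and organic ions to 4761 ± 429. Smaller sums were seen for 13 vitamin and cofactor carriers (3101 ± 898), 16 monocarboxylate and dicarboxylate carriers (2392 ± 347) and 6 nucleoside carriers (1821 ± 192). Sodium, proton and calcium exchangers (13 genes) summed to 1775 ± 242 per kb. The 5 Slc35a nucleotide sugar carriers summed to 1539 ± 121, the 10 phosphate and vesicular anion carriers to 1398 ± 183, the 5 fatty acid carriers to 821 ± 121 and the 4 peptide carriers to 368 ± 76.0.

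The median solute carrier gene had 106 normalized counts per kb, against 130 for the median of all genes in the table. Of the 246 genes, 19 exceeded 1000 per kb and 37 lay below 10. The 10 leading genes held 47.6% ± 3.10 of the summed per-kb level, and Slc12a2 alone held 14.9% ± 4.28, from 8.95% to 20.6% in single mice.

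Slc12a2 had 14292 ± 5319 normalized counts per kb and ranged from 7467 to 21267. It was followed by Slc25a5, an ADP/ATP carrier of the inner mitochondrial membrane, with 6077 ± 1324 per kb, from 4332 to 8385. Slc5a5 (chr8:70882889-70892757) came next with 4991 ± 2453 per kb, from 2194 to 8569. The ranges of these neighbours overlapped, so the order among single mice was not fixed. Among amino acid carriers, Slc3a2, the heavy chain shared by several exchangers, had 4093 ± 851 per kb, and Slc7a2, a carrier of arginine and other cationic amino acids, had 2482 ± 1578. Slc2a1, the glucose carrier GLUT1, had 3503 ± 791 per kb, and Slc39a1, a zinc importer, had 3140 ± 450. The last of the 10 were mitochondrial. Slc25a39, which brings glutathione into mitochondria, had 2448 ± 429 per kb, the phosphate carrier Slc25a3 had 2069 ± 168, and Slc25a4, another ADP/ATP carrier, had 2042 ± 547. Slc25a3, Slc25a4 and Slc25a5 have closely similar processed pseudogene copies, to which reads can be lost, so their levels are uncertain.

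**Figure D1:**
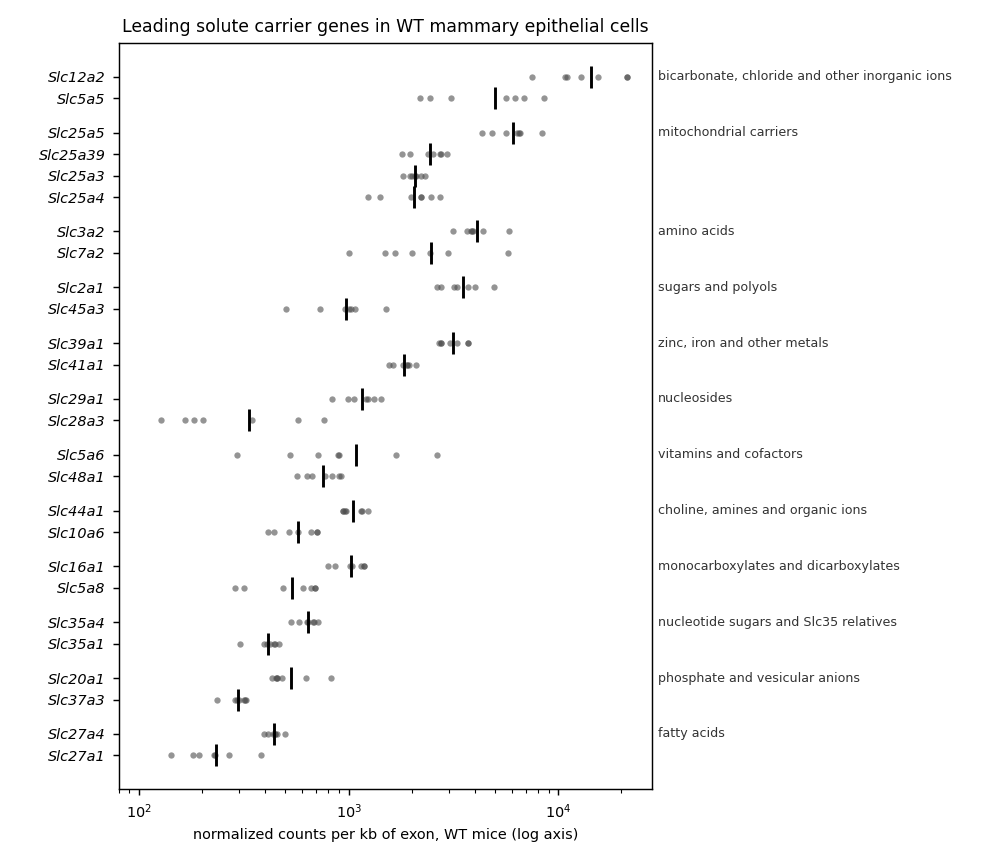
Normalized counts per kb of merged exon (x axis, log scale) in the 7 WT mice for the 10 leading solute carrier genes and the 2 leading genes of most substrate classes with at least 5 genes. Points are mice and vertical bars are means. Slc12a2 had the highest mean, 14292 per kb, and Slc5a6 spread from 294 to 2629.

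Slc41a1, a magnesium carrier, was second among the metal carriers with 1835 ± 184 per kb. Among vitamin carriers the leader was Slc5a6, which takes up biotin and pantothenate, with 1090 ± 804 per kb, followed by the heme carrier Slc48a1 with 757 ± 138. The nucleoside carriers were led by Slc29a1, an equilibrative carrier, with 1157 ± 204 per kb, above the concentrative carrier Slc28a3 with 337 ± 242. Slc44a1, a choline carrier, had 1051 ± 127 per kb, and Slc10a6, which takes up sulfated steroids, had 575 ± 122. The lactate and pyruvate carrier Slc16a1 had 1030 ± 154 per kb and Slc5a8, a sodium-coupled monocarboxylate carrier, had 536 ± 174. The second sugar carrier after Slc2a1 was Slc45a3 with 972 ± 313. The leaders of the lowest classes were Slc35a4 (638 ± 63.6 per kb), Slc35a1, the CMP-sialic acid carrier (411 ± 53.3), Slc20a1, a phosphate carrier (533 ± 146), Slc37a3 (297 ± 30.7), Slc27a4, a fatty acid carrier (441 ± 33.5), and Slc27a1 (232 ± 77.9).

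A list of 24 solute carriers with a known mammary role was compiled for these cells. Of these, 7 exceeded 1000 per kb in WT mice. Several carriers tied to milk secretion were scarce. Slc34a2, the sodium-phosphate cotransporter of lactating epithelium, had 10.3 ± 8.41 per kb, and Slc30a2, which loads zinc into secretory vesicles, ranged from 5.84 to 17.1 per kb. Slc30a4, another zinc exporter, had 675 ± 119 per kb.

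How far the transporters differed between litters was asked next, over both genotypes. The 7 litter means of log2(normalized count + 1) were compared by limma's moderated F test with genotype in the fit, and a Benjamini-Hochberg adjusted p under 0.05 over all genes was called. By this test 65 of 246 solute carrier genes (26.4%) differed between litters, against 33.3% of all genes tested. The SD over litters had a median of 0.29 on the log2 scale for the 214 solute carrier genes with a mean of at least 50 normalized counts, and of 0.32 for all 13230 such genes. A litter stands for parents, cage, oestrous stage and day of preparation at once, and these cannot be told apart. The highest WT and the highest OE/OE mouse came from the same litter for 87 of the 214 genes (40.7%), against 40.1% of all such genes. The count of 65 was 63, 42, 70, 41, 51, 21 and 50 when pair 1, 3, 4, 5, 6, 7 or 8 was left out. Each of these fits had fewer mice, and the share of all genes called in them was not compared.

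The classes differed in how many of their genes were called, beside 33.3% of all genes tested. Metal carriers had 10 of 27, sugar carriers 6 of 16, vitamin carriers 5 of 13 and Slc35a carriers 3 of 5, whereas monocarboxylate and dicarboxylate carriers had 1 of 16 and mitochondrial carriers 8 of 42. The median litter SD was 0.24 for mitochondrial and 0.23 for metal carriers, and 0.39 for amino acid and 0.41 for inorganic ion carriers, all on the log2 scale. The differences between classes were not tested. The called genes included abundant ones. Slc25a4 ranged from 2902 normalized counts in pair 5 to 6449 in pair 4 among WT mice and from 2235 to 8131 in the same pairs among OE/OE mice (litter SD 0.52, adjusted p = 0.00369). Slc25a5 had its lowest and highest values in those pairs as well (litter SD 0.41, adjusted p = 0.00971).

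The 10 genes with the largest litter SD were Slc5a5, Slc6a14, Slc5a6, Slc38a11, Slc7a2, Slc2a3, Slc10a5, Slc15a2, Slc13a2 and Slc26a9 and each had an SD of at least 0.82 on the log2 scale. As this choice used the spread itself, their SDs are a description. Just outside were Slc34a2 (0.76), Slc12a2 (0.74) and Slc5a1 (0.70). The F test, which sets the litters against the spread within pairs, called 6 of the 10.

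Iodide, biotin and arginine carriers were high in pairs 7 and 8 in both genotypes. In pair 5 the iodide and arginine carriers were high too, but the biotin carrier Slc5a6 only in the OE/OE mouse. Slc5a5 had 25090, 20040 and 18145 normalized counts in the WT mice of pairs 7, 8 and 5, and 6425 to 16448 in the other WT mice. The OE/OE mice of the same 3 pairs had 27217, 17968 and 16460, and the others had 598 in pair 4 and 6641 to 7662 elsewhere. In each genotype the mice of pairs 5, 7 and 8 were thus the 3 highest. The gene missed the threshold (adjusted p = 0.0744), and the OE/OE mouse of pair 4 was far below its WT littermate with 8979.

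Slc5a6 (chr5:31036036-31048924) had 10492 normalized counts in the WT mouse of pair 7 and 6694 in that of pair 8, above 1174 to 3595 in the other 5 WT mice. The OE/OE mice of pairs 7, 5 and 8 had 11302, 8801 and 7700, above 1150 to 2466 in the other 4. Litters differed (litter SD 1.12, adjusted p = 0.0111). Of the exon bases of Slc5a6, 9.92% are shared with Atraid, a neighbour on the opposite strand, and whether strand was used in counting is not given in the sources used here. Atraid had 773 to 2088 normalized counts in WT mice and 578 to 2030 in OE/OE mice, and its part in the counts of Slc5a6 was not tested.

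Slc7a2 had 52452 normalized counts in the WT mouse of pair 7, then 27359 and 22416 in pairs 8 and 5, and 9135 to 18424 in the others. Its OE/OE values were 49252, 43058 and 30921 in pairs 7, 5 and 8 and 5048 to 13102 elsewhere, and litters differed (litter SD 0.94, adjusted p = 0.0172). Slc12a2 shared the top places in part. Its WT values were 232241 and 231342 in pairs 8 and 7 and 81543 to 169435 in the others, and in OE/OE mice pairs 5, 7 and 8 had 192902, 176026 and 170312 against 21129 to 105379 elsewhere. Its litters did not pass the test (adjusted p = 0.123).

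Among markers of hormone-sensing luminal cells (10 genes), the summed level, to which Prlr alone gave a mean of 77372 of the WT counts, was 217448 and 180765 in the WT mice of pairs 7 and 8 and 94134 to 148244 in the others. In the OE/OE mice the sum was 184422, 167576 and 161520 in pairs 7, 5 and 8, and 72157 to 127480 elsewhere. The mean of the 10 log2 values followed another order. It was highest in pair 6 among WT mice, at 12.30, beside 12.02 in pair 5, and in OE/OE pair 5 had 12.08 beside 12.19 and 12.17 in pairs 1 and 6. The part of these cells in the transporter differences was not tested. In bulk RNA, fewer cells of a type and less RNA per cell cannot be told apart.

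Slc2a3, the high-affinity glucose carrier GLUT3 (chr6:122727809-122801640), was high in a single litter. In pair 7 the WT mouse had 3016 normalized counts and its OE/OE littermate 2964. The other 6 WT mice had 511 to 901 and the other 6 OE/OE mice 290 to 1126. Neither range reached the level of pair 7, and the litter difference had an adjusted p of 0.00368.

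Slc15a2 was low in 2 litters. Its WT values were 216 normalized counts in pair 8 and 280 in pair 6, below 568 to 1055 in the others, and its OE/OE values were 212 and 558 in those pairs, below 709 to 1449 (litter SD 0.90, adjusted p = 0.00756).

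**Figure D2:**
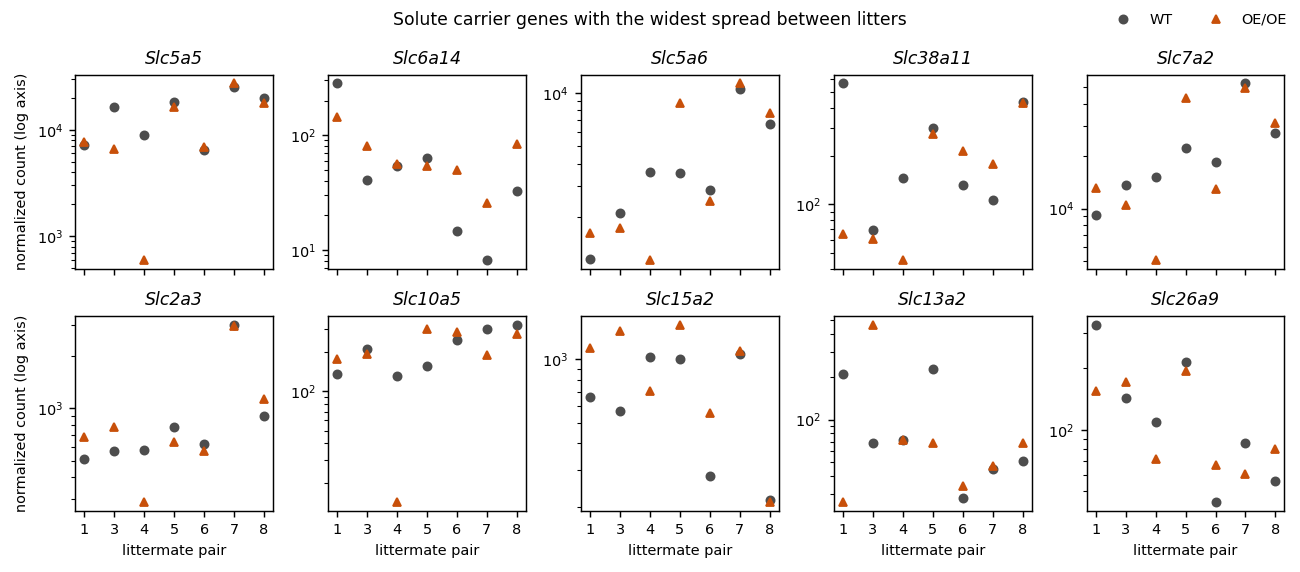
Normalized counts (log axis) by littermate pair for the 10 solute carrier genes with the largest litter SD, with a circle for the WT and a triangle for the OE/OE mouse of each pair. Slc5a5, Slc5a6 and Slc7a2 are high in pairs 7 and 8, Slc2a3 only in pair 7, and the OE/OE mouse of pair 4 lies lowest for Slc5a5, at 598, and Slc10a5, at 14.4.

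Several scarcer carriers were highest in the WT mouse of pair 1. Slc6a14, a broad amino acid carrier, had 283 normalized counts there and 8.13 to 62.9 in the other WT mice, and 144 in the OE/OE littermate against 25.4 to 84.3 in the other OE/OE mice (litter SD 1.14, adjusted p = 0.0245). Slc26a9, an anion carrier, had 327 in that WT mouse and 44.3 to 216 in the others (litter SD 0.82, adjusted p = 0.0149). Slc5a1, the sodium-coupled glucose carrier, had 2440 there and 353 to 805 in the other WT mice, and 1256 in the OE/OE littermate (adjusted p = 0.0235). In the same library the summed level of 9 lymphocyte markers was 2486 normalized counts, against 222 to 409 in the other WT mice and 190 to 529 in OE/OE mice. The sum of 12 luminal progenitor and alveolar markers was 175021 there, the highest of the WT mice but close to 170300 in pair 4. The OE/OE mouse of pair 3 had more, 202426, and the OE/OE littermate in pair 1 had 141914. The part of these cells in the transporter levels was not tested.

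The other 3 wide genes were not called. Slc38a11 had 566 normalized counts in the WT mouse and 65.7 in the OE/OE mouse of pair 1 (adjusted p = 0.140). Slc13a2, a citrate and dicarboxylate carrier that shares 26.2% of its exon bases with an antisense gene, had log2 ratios within pairs of -2.94, 2.74 and -1.72 in pairs 1, 3 and 5 (adjusted p = 0.413). Slc10a5 had 14.4 in the OE/OE mouse of pair 4 and 130 to 321 in the other libraries (adjusted p = 0.121).

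Whether overexpression of Usp22 altered transporter transcripts was asked within littermate pairs, by limma on log2(normalized count + 1) with the pair as a block. The threshold was an unadjusted p of 0.05, the level used in the study. Of the 246 solute carrier genes, 7 were higher in OE/OE (2.85%, against 1.95% of all genes tested) and 6 were lower (2.44%, against 1.85%). No solute carrier gene passed after Benjamini-Hochberg adjustment, the smallest adjusted p of limma being 1.00. edgeR and DESeq2 called 0 after adjustment too, and 14 and 16 at an unadjusted p of 0.05 or less. The median log2 fold change of the solute carrier genes was -0.02, beside 0.00 for all genes. A total of 2 solute carrier genes were higher in OE/OE in all 7 pairs (0.887% of all genes were) and 1 was lower in all 7 (0.62% of all genes were). The values below are therefore those of candidates at an unadjusted threshold.

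The 7 higher genes carry osmolytes, amino acids, zinc, thiamine and other substrates. Slc39a10 (chr1:46807544-46892852), a zinc importer, had 1314, 1678 and 1947 normalized counts as its lowest, median and highest WT value, and 1729, 1912 and 2239 in OE/OE. It was higher in 7 of 7 pairs, by 0.09 to 0.54 on the log2 scale, with a log2 fold change of 0.23 ± 0.07 (SE) and an unadjusted p of 0.0105 by limma. Slc19a2 (chr1:164249046-164265385), the thiamine carrier, was the other gene higher in 7 of 7 pairs. Its lowest, median and highest values were 877, 1089 and 1281 in WT and 936, 1225 and 1556 in OE/OE, and its log2 fold change was 0.23 ± 0.09 with an unadjusted p of 0.0303 in limma. The values of the groups overlapped for both genes. Without pair 3, whose ratio was 0.73, the log2 fold change of Slc19a2 was 0.15 and its call was lost (limma unadjusted p = 0.0737), and it was also lost without pair 1, 6 or 7 (0.0518 to 0.0550).

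Slc38a2 (chr15:96687392-96699730), the sodium-coupled carrier of glutamine, alanine and other neutral amino acids, was the most abundant of the 13 genes called, with 1801 ± 316 normalized counts per kb in WT. Its normalized counts were 12698, 15698 and 21012 as lowest, median and highest in WT and 11738, 20186 and 22498 in OE/OE. It was higher in 6 of 7 pairs, the exception being pair 4 with a log2 ratio of -0.11, and its log2 fold change was 0.27 ± 0.09 (limma unadjusted p = 0.0175), or 0.23 without pair 6, where the call was lost (0.0566). Slc5a3, which takes up myo-inositol as an osmolyte, had 1369, 1891 and 2873 normalized counts in WT and 1321, 2657 and 3669 in OE/OE. It was higher in 5 of 7 pairs with a log2 fold change of 0.40 ± 0.12 (limma unadjusted p = 0.00867), and in pairs 4 and 7 its ratios were -0.05 and -0.11. It shares 1.46% of its exon bases with Mrps6 and another overlapping gene.

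Slc22a23, an organic ion carrier of unknown substrate, was higher in 6 of 7 pairs, by 0.21 ± 0.08 on the log2 scale, and lost its call without pair 6 or 7 (0.19 and 0.18). Slc25a48, a mitochondrial carrier, averaged 203 ± 81.0 (SD) normalized counts in WT mice, 265 ± 95.3 in OE/OE mice, and was higher in 6 of 7 pairs. Its log2 fold change was 0.41 ± 0.17, and the call was lost without pair 3, 6, 7 or 8 (0.33 to 0.39). Slc16a5, of the monocarboxylate family, had 79.0 ± 34.5 in WT and 129 ± 62.7 in OE/OE. Its log2 ratios ran from -0.44 in pair 5 to 2.02 in pair 4, and its log2 fold change of 0.69 ± 0.27 was 0.47 without pair 4. The call was lost without pair 1, 4 or 8.

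The 6 lower genes carry nucleotides, nucleosides, amino acids, acetyl-CoA, sulfate and lactate. Slc17a9 (chr2:180725263-180742280), the vesicular carrier that loads ATP for release, had 181, 222 and 356 normalized counts as lowest, median and highest in WT and 107, 149 and 278 in OE/OE. It was lower in 7 of 7 pairs, with log2 ratios of -1.07 to -0.13, and its log2 fold change was -0.53 ± 0.13 (limma unadjusted p = 0.00316). It was the solute carrier gene with the smallest p. Slc43a2 (chr11:75531694-75577575), a carrier of branched-chain and other large neutral amino acids, had 665, 1198 and 2909 in WT and 448, 776 and 1153 in OE/OE. It was lower in 6 of 7 pairs, the exception being pair 8, with a log2 fold change of -0.73 ± 0.21 (limma unadjusted p = 0.00679).

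Slc28a3, which concentrates nucleosides into cells, had 1007, 1597 and 6018 normalized counts in WT and 539, 1372 and 1859 in OE/OE. Its log2 ratios formed separate clusters, from -1.83 to -1.32 in pairs 1, 5, 6 and 7, and -0.10 to 0.46 in pairs 3, 4 and 8. The log2 fold change of -0.78 ± 0.31 (limma unadjusted p = 0.0316) had an exact two-sided sign-flip p of 0.109. It was -0.69 to -0.61, and not called, without any one of pairs 1, 5, 6 and 7. Slc16a3, the lactate exporter MCT4, had 349, 488 and 614 in WT and 284, 347 and 445 in OE/OE, and it was lower in 6 of 7 pairs with a log2 fold change of -0.38 ± 0.17 (limma unadjusted p = 0.0477). It was -0.39 to -0.26, and not called, without any one of pairs 4, 5, 6 and 7.

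Slc33a1, which carries acetyl-CoA into the endoplasmic reticulum, was lower in 6 of 7 pairs with a log2 fold change of -0.28 ± 0.08. It shares 32.0% of its exon bases with the neighbouring gene Gm26850, so its counts depend on how shared reads were assigned. Slc13a4, a sulfate carrier, was near the floor of the table, at 14.9 ± 4.23 (SD) normalized counts in WT mice and 9.90 ± 4.96 in their OE/OE littermates. Its log2 fold change of -0.60 ± 0.25 rested on few fragments, and it was not called without any one of pairs 3, 5, 6 and 8.

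**Figure D3:**
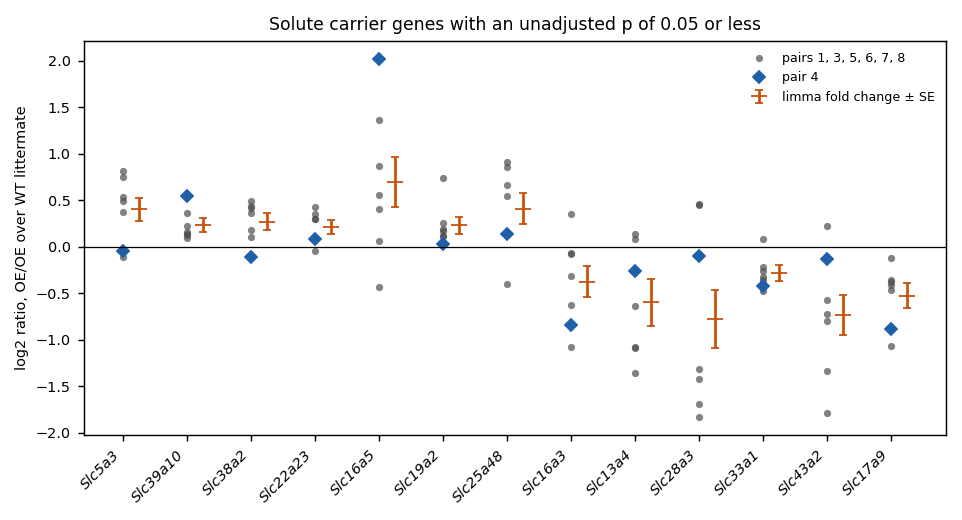
Log2 ratio of normalized count + 1, OE/OE over WT littermate, for the 13 solute carrier genes called at the unadjusted threshold. Circles are pairs, diamonds mark pair 4, and the orange bar is the limma log2 fold change with its SE. Slc39a10 and Slc19a2 lie above 0 and Slc17a9 below 0 in all 7 pairs.

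By class, the calls were scattered. Among all genes tested 1.95% were higher and 1.85% lower in limma, the shares to set beside each count in this paragraph. Amino acid carriers had 1 higher and 1 lower of 42, monocarboxylate and dicarboxylate carriers 1 higher and 2 lower of 16, mitochondrial carriers 1 higher of 42 and metal carriers 1 higher of 27. The 2 lower of the 16 were Slc16a3 and Slc13a4, a sulfate carrier placed there with its Slc13 family. Nucleoside carriers had 1 lower of 6, and the 48 inorganic ion, sodium exchange, fatty acid, peptide and Slc35a carriers had 0 in limma and edgeR at this threshold. DESeq2 called a pair of these 48, Slc15a2 higher and Slc12a2 lower. Of the 24 carriers with a mammary role, 1 was higher (Slc38a2) and 2 were lower (Slc28a3 and Slc16a3), with a median log2 fold change of 0.03 and a range of -0.78 to 0.72. In litters, 3 of the 24 differed (Slc6a14, Slc30a4 and Slc30a2), against 33.3% of all genes. Among 28 carriers outside the name rule and partner proteins in the table, 1 was higher, the phosphate exporter Xpr1 (log2 fold change 0.22, higher in 6 of 7 pairs), 0 were lower and 8 differed between litters, a share below the 33.3% of all genes.

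The leading WT transporters did not pass the genotype test. Slc12a2 had a log2 fold change of -0.60 ± 0.32 (limma unadjusted p = 0.0919), with ratios from -2.51 in pair 4 to 0.46 in pair 5. DESeq2 gave it an unadjusted p of 0.0393 and an adjusted p of 1.00. Its limma log2 fold change was -0.28 without pair 4 (limma unadjusted p = 0.214). Without pair 5 it was -0.78 and the gene was called (limma unadjusted p = 0.0447). Slc5a5 had -0.74 ± 0.45 (limma unadjusted p = 0.133), with a ratio of -3.91 in pair 4, -1.31 in pair 3 and -0.16 to 0.12 in the other 5, and it was -0.21 without pair 4. With the adipocyte marker score as covariate both turned positive, but neither was called. Slc5a5 had 0.23 (limma unadjusted p = 0.546) and Slc12a2 had 0.13 (limma unadjusted p = 0.606) in that fit. The score, a mean of log2 values, was lower in OE/OE in 6 of 7 pairs. It was lowest in the OE/OE mouse of pair 4, at 6.23, so it cannot be fully told apart from genotype or from that mouse. Slc2a1 had -0.03 ± 0.15 and Slc3a2 0.05 ± 0.14. Without pair 4, where 3.98% of all genes were lower, Slc25a39 was called lower (log2 fold change -0.21, limma unadjusted p = 0.0208).

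The OE/OE mouse of pair 4 stood apart from the other libraries in these genes. It held the lowest value of 78 and the highest value of 39 of the 214 solute carrier genes with a mean of at least 50 normalized counts. The lowest values were 36.4% of them, against 25.6% of all such genes, and the highest 18.2%, against 29.8%. Together they were 54.7%, against 55.4%. In pair 4, 37 of the 214 differed by more than 2-fold (17.3%, against 16.3% of all such genes), and in the other pairs 4 to 14 did. The same library had the lowest summed level of 12 endothelial markers, 22698 normalized counts against 63947 to 131932 elsewhere, and the highest of 12 proliferation markers, 17818 against 371 to 8615. It was also lowest for 12 genes induced by tissue dissociation, at 186279 against 282170 to 724469, and for the adipocyte and fibroblast markers given below. The part of these differences in the transporter values was not tested.

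**Figure D4:**
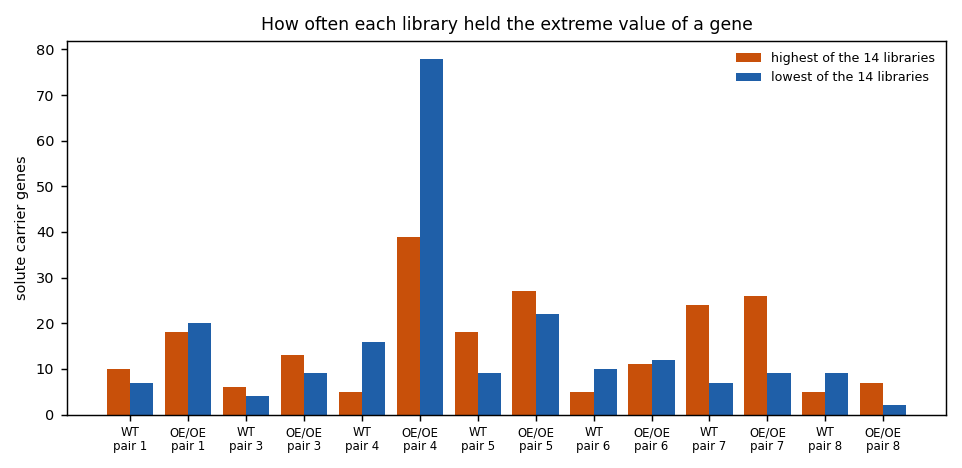
Number of solute carrier genes, of 214 with a mean of at least 50 normalized counts, for which each of the 14 libraries held the highest or the lowest value. The OE/OE library of pair 4 held 39 of the highest and 78 of the lowest values, more than any other library in each case.

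Without pair 4, 16 solute carrier genes were higher (4.49% of all genes were) and 8 were lower (3.98% of all genes were) at an unadjusted p of 0.05 or less by limma, and 11 of the 13 genes named above were among them. The genes with the smallest p values in that fit were the sulfate carrier Slc26a2, with a log2 fold change of 0.44 ± 0.09 (limma adjusted p = 0.521), and Slc22a4, a carrier of ergothioneine and organic cations, with 0.44 ± 0.10 (limma adjusted p = 0.521). Both were chosen after their values were seen. With all pairs their log2 fold changes were 0.28 ± 0.15 and 0.25 ± 0.18.

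Markers of other cells were compared in the same way. The summed level of 12 adipocyte markers was 17886 to 40132 normalized counts in WT and 14865 to 37458 in OE/OE. Fabp4 alone gave a mean of 17495 of the WT counts, beside 49.6 for Adipoq and 55.9 for Plin1, so the sum mostly follows Fabp4. Of the 12 markers 5 were lower at the unadjusted threshold, Plin1 and Adipoq among them, beside log2 fold changes of 0.20 for Lipe and 0.08 for Pnpla2. Of 12 fibroblast markers 5 were lower too, against 1.85% of all genes in each case, and each of these genes had an adjusted p of 1.00 in limma. The fibroblast sum was 123146 to 254864 in WT and 93094 to 190315 in OE/OE. None of either list was absent from the table. Of 16 pan-epithelial markers 2 were higher, Cldn7 (log2 fold change 0.35) and Elf3 (0.43), against 1.95% of all genes, and 0 were lower. Their mean log2 value was higher in OE/OE in 6 of 7 pairs. Of 12 luminal progenitor and alveolar markers 0 were higher and 1 was lower, Aldh1a3 (-0.46, higher in 0 of 7 pairs). None of these 3 genes passed after adjustment in limma. The 15 solute carriers in the table that adipocytes, macrophages, endothelium, red cells or muscle use had 0 higher and 0 lower at the unadjusted threshold in limma, edgeR and DESeq2. Their log2 fold changes were -0.22 to 0.13, and 3 differed between litters. Of all genes 1.95% were higher, 1.85% lower and 33.3% different between litters in limma. A list of 15 is too short for 0 calls to be set apart from those shares. When the adipocyte score entered the fit as a covariate, 21 carriers were higher (9.7% of all genes were) and 19 lower (7.63% of all genes were). With the fibroblast score 3 were higher (0.949% of all genes) and 2 lower (0.788% of all genes). The part of these cells in the transporter differences was not otherwise tested.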

How the data were processed

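The deposited signal consists of normalized counts: the authors aligned read pairs to mm10 (TopHat 2.0.10), counted them on GENCODE M21 genes (HTSeq 0.6.0), required 10 fragments in 7 or more libraries and scaled by size factors (DESeq 1.18.0). Dividing by the step of each library gave whole fragments for 100% of values within a tolerance of 0.1, so these were recovered for edgeR 4.0.16 and DESeq2 1.42.0, both alternatives. Tests used limma 3.58.1 (R 4.3.3, trend) on log2(normalized count + 1), a scale that understates changes of low genes, over all 16124 genes with the pair as a block.

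Pairs are littermates per the labels and methods. Across genes, deviations from the genotype means had a median correlation of 0.522 (0.171 to 0.748) between littermates and -0.151 between other mice. No library was a duplicate (chi-square per gene of 30.3 or more for each pair). Exact two-sided sign flips of 7 pairs (128 patterns) were computed for each solute carrier gene, and their p is given here for Slc28a3 alone. The calls rest on limma. Genes named were the 10 leading in WT, the 2 leading per class of at least 5 (those of the sodium, proton and calcium exchange class are not reported here), the 10 with the largest litter SD and up to 10 per direction by p. Substrate classes, marker lists and the genes themselves were chosen with earlier results of these data known. RefSeq promoters matched 185 of 246 genes, and Slc7a2 and Slc2a3 had no entry. Depth sets the precision of low genes, since 1 fragment was worth 0.777 to 1.70 normalized counts. On simulated counts for 16124 genes with 200 changed, limma recovered 84.5% of genes changed by 0.5 (log2) between genotypes and called 5.12% of unchanged genes. For litters simulated with an SD of 0.5 it recovered 29.5%. In the real mice limma called 1.95% of all genes higher and 1.85% lower at the unadjusted threshold. The simulated counts were not shown to match the spread of these mice. The simulated shares are therefore not recovery rates for the real genes, and missing calls cannot be read as missing changes.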

Additional observations from a re-analysis of the deposited data

Results flagged for a closer look

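A gap test on 94 groups of 7 mice, covering the named genes in each genotype, marked 14 groups in which the highest or lowest mouse lay far from the nearest other one; chance alone flags about 1 in 20 groups, a share that does not apply here because many of these genes were named for their spread. The value is the gap divided by the range of the group.

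The OE/OE mouse of pair 4 accounted for 6. It was lowest for Slc10a5 (0.823), Slc38a2 (0.679), Slc5a5 (0.631), Slc5a3 (0.607) and Slc41a1 (0.595), and highest for Slc35a4 (0.646). For Slc38a2 it had 11738 normalized counts where the nearest OE/OE mouse had 18252. The OE/OE mouse of pair 3 was highest for Slc13a2 (0.655) and Slc2a1 (0.589). The WT mouse of pair 7 was highest for Slc2a3 (0.681), with 3016 normalized counts beside 901 in the next, and both mice of pair 5 were lowest for Slc35a1 (0.609 in WT and 0.569 in OE/OE). The WT mouse of pair 4 was lowest for Slc37a3 (0.634), the OE/OE mouse of pair 1 for Slc16a1 (0.603) and the OE/OE mouse of pair 6 for Slc28a3 (0.569).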

How the results depend on the processing

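The counts of 7 higher, 6 lower and 65 litter-dependent genes stayed within 1.5 times under the pseudocounts 0.1 and 10, a mean of at least 50, no trend and edgeR. Some of the counts moved further in other settings, and the cause was not tested. Without the replicate block the counts were 1 higher and 3 lower. With the adipocyte score as a covariate they were 21 and 19, and with the fibroblast score 3 and 2. The paired test on untransformed counts gave 3 lower, and DESeq2 101 for litters. Leaving out each pair in turn gave 3 to 16 higher, 3 to 10 lower and 21 to 70 between litters. Higher counts were 16 without pair 4, 11 without pair 5, 3 without pair 6 and 4 without pair 7, and lower counts were 10 without pair 1 and 3 without pair 6. The log2 fold changes that reversed sign were those of Slc5a5 (0.23) and Slc12a2 (0.13), both with the adipocyte score. With all pairs, neither gene was called by limma with or without that score. Slc12a2 was called without pair 5 (limma unadjusted p = 0.0447).

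Of the called genes, Slc43a2 kept its call in 17 of 17 alternatives, Slc17a9, Slc39a10 and Slc33a1 in 16, Slc5a3 in 15 and Slc38a2 in 14, while Slc22a23 kept it in 12, Slc16a5 and Slc19a2 in 11, Slc28a3 in 10, Slc16a3 and Slc25a48 in 9 and Slc13a4 in 7 of 16. The 10 leading WT genes were the same with the median and without each WT mouse, and 9 of them remained with the longest transcript as length. With 7 pairs, changes of low genes such as Slc13a4 are poorly resolved.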
